A study of Mus musculus with 12 samples.

Results

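The CHD family of chromatin remodellers was followed at the transcript level in O4-positive mouse cells. Its members were taken by gene symbol, and all 10 of them (Chd1 to Chd9 and Chd1l) were among the 14107 genes of the count table. The symbols alone decided membership, although the family was picked with earlier results of these data known. Cells were sorted with magnetic beads against O4, a lipid epitope of late oligodendrocyte precursors and immature oligodendrocytes, from cortex and corpus callosum at postnatal day 7. By the labels, the 7 Control libraries came from pups with both Chd7 alleles floxed (Chd7flox/flox), and the 5 Chd7iKO libraries from littermates that also carried PDGFRaCre, a Cre under a promoter active in oligodendrocyte precursors. Pups of both groups received tamoxifen, under the skin and at 20 mg/ml, with 40 µl given on postnatal day 1 and 30 µl on day 4. No group in these labels had Cre with intact Chd7, so an effect of Cre cannot be told apart from one of Chd7 deletion. How many pups made up a library, and which part of Chd7 was floxed, the labels do not say.

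CHD proteins use the energy of ATP to slide, eject or space nucleosomes, and most carry paired chromodomains, which bind histone tails, in front of a helicase-like ATPase. They fall into subfamilies: Chd1 and Chd2, linked to transcribed genes; Chd3, Chd4 and Chd5, alternative ATPases of the NuRD histone deacetylase complex; and Chd6, Chd7, Chd8 and Chd9, of which Chd7 and Chd8 bind many promoters and enhancers. Chd1l is a more distant relative with a macrodomain that recognises poly(ADP-ribose) at damaged DNA. In mouse oligodendrocytes, Chd7 is known to act with Sox10 at genes of myelination.

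The shared ATPase is visible in the coding DNA. The stretch of 60 bases around its DEAH box, a motif of the ATPase that takes part in ATP hydrolysis, is shown for each member to compare the subfamilies, read 5′ to 3′ on the coding strand from the GENCODE M21 transcript with the longest coding sequence. Capitals mark the 12 bases that encode the box.
Chd1: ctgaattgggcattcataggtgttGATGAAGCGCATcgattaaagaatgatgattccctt
Chd2: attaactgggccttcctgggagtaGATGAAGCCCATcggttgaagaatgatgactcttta
Chd3: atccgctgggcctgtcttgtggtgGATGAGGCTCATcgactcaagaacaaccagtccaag
Chd4: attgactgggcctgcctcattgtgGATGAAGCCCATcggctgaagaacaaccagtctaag
Chd5: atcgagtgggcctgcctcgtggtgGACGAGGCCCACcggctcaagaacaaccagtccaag
Chd6: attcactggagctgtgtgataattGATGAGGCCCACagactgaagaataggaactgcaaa
Chd7: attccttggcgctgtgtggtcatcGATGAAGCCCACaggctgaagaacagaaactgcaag
Chd8: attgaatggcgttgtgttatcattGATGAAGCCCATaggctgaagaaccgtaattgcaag
Chd9: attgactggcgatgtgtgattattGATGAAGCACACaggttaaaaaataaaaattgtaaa
Chd1l: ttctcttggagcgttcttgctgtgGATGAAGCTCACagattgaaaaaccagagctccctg
Each stretch lay within 1 exon. The Chd7 stretch is at chr4:8828319-8828378 on the plus strand (mm10), and that of Chd8 at chr14:52219627-52219686 on the minus strand. Over these 60 bases Chd7 shared 49 bases with Chd6, 49 with Chd8 and 44 with Chd9. It shared 39 with Chd3, 40 with Chd4, 39 with Chd5, 35 with Chd2 and 29 with Chd1. Chd1l shared 37 bases with Chd7. The 12 bases of the box had 8 spellings among the 10 genes, and Chd2, Chd4 and Chd8 had the same one.

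Binding lists gave another readout. The authors deposited lists of genes bound by Chd7 or Chd8 in precursors, as gene names with no scores, and how sites were assigned to them is not stated in the labels. Of the 10 members, 6 were listed as bound by Chd7 in precursors (Chd2, Chd3, Chd6, Chd7, Chd8 and Chd9), a list that held 39.4% of all tested genes. The same 6 stood in the list bound by both Chd7 and Chd8, which held 34.8% of tested genes. All 4 genes of the Chd6 to Chd9 subfamily were among them, and Chd7 and Chd8 were thus each listed as bound by both proteins. Chd4 alone was listed as bound by Chd8 without Chd7, in a list that held 32% of tested genes. In oligodendrocytes, Chd2, Chd3, Chd7 and Chd9 stood in the deposited list common to both stages (12.04% of tested genes). Chd6 and Chd8 were listed for precursors only (27.3%), and Chd1l and Chd5 for oligodendrocytes only (7.80%). Chd1 was in none of these lists. The authors' lists of Chd7-bound genes with higher or lower expression (4.95% and 4.61% of tested genes) held 0 members, but these lists rest on expression and so are no separate readout from the RNA.

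The 250 bases before the transcription start are shown for Chd8 and Chd6, listed as bound by both proteins, for Chd4, listed for Chd8, and for Chd5, listed for Chd7 in oligodendrocytes. They are from RefSeq (GRCm38.p6, the build mm10) and run 5′ to 3′ towards the start. Capitals mark CCAAT (or ATTGG on the other strand) and GGGCGG (or CCGCCC).
Chd8: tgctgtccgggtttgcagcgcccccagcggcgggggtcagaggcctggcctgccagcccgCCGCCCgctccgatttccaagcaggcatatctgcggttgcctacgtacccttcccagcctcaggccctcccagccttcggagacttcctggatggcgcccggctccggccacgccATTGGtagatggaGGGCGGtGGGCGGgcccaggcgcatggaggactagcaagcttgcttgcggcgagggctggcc
Chd6: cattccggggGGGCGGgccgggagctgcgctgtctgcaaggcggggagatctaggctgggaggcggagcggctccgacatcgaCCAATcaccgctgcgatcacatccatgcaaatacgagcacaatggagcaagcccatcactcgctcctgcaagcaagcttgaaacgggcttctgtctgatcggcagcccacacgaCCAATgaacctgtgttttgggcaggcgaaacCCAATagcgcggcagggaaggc
Chd4: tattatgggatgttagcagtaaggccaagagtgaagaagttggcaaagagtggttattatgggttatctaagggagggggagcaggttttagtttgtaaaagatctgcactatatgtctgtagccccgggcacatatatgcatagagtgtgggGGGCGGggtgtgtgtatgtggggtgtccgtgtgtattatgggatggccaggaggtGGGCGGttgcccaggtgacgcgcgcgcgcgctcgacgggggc
Chd5: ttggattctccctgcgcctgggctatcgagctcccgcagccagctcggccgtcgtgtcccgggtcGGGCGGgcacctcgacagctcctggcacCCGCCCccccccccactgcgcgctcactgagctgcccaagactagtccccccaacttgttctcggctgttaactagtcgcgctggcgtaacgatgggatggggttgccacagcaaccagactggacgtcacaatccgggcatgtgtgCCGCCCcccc
They lie at chr14:52257761-52258010 (minus strand), chr2:161109087-161109336 (minus), chr6:125095731-125095980 (plus) and chr4:152338401-152338650 (plus). Chd6 had 3 CCAAT matches, Chd8 had 1, and these letters were not in the Chd4 and Chd5 windows. GGGCGG matched 3 times in Chd8, 3 times in Chd5, 2 times in Chd4 and 1 time in Chd6. Of 32851 RefSeq windows of the same length, 33.9% held CCAAT and 32.7% held GGGCGG on either strand. The 4 windows had 12 (Chd4) to 21 (Chd5) CpG dinucleotides. A match is a description of letters and not a binding site, and where Chd7 or Chd8 bound relative to these windows is not known from the lists. Chd9 and Chd1l had entries in the promoter table as well, while Chd1, Chd2, Chd3 and Chd7 had none.

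Before the results, the libraries need a word. Total estimated counts were 30384507 to 35512310 per library. Genes of oligodendrocyte precursors and committed cells summed to 14151 to 18089 CPM in Control and 11439 to 13190 CPM in Chd7iKO libraries, where CPM is the count scaled to a common library size with TMM. Controls 3 and 6 stood apart in Esr1, the gene of estrogen receptor alpha, part of which is carried by many tamoxifen-inducible Cre fusions. Esr1 stood at 81.7 and 44.7 CPM in them. It was between 0.532 and 1.26 CPM in the remaining 5 controls, and between 138 and 171 CPM in Chd7iKO. Where these reads come from was not tested. Whether the libraries labelled Control 3 and Control 6 came only from pups without Cre cannot be told from these data, and each mean over 7 controls rests on their labels. Results are therefore given with and without them. Libraries also differed in the sex of their pups. Xist, expressed from the inactive X, was at 0.930 CPM in Control 2 and 2590 to 3202 CPM in Controls 1, 5 and 6. The Y-linked Ddx3y was at 125 CPM in Control 2 and at most 0.0901 CPM in Controls 1, 5 and 6. Controls 3, 4 and 7 and all 5 Chd7iKO libraries held reads of both genes. In sorted bulk cells, fewer cells of a type and less RNA per cell cannot be told apart.

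None of the 10 members differed between the groups at the threshold. In edgeR's quasi-likelihood test with Benjamini-Hochberg adjustment over all genes, 0 of 10 had an adjusted p under 0.05, while 29.5% of all tested genes did. At an unadjusted p under 0.05 edgeR gave 0 of 10 members against 40.7% of all genes. DESeq2 also called 0 members against 33.6% of all genes, and limma voom called 1, Chd5, against 45.8%. With Y-linked expression as a covariate, 0 members and 29.2% of all genes were called. The authors' deposited table gave 0 members and 26.4% of all genes an adjusted p under 0.05, and there Chd5 had the smallest p among them (0.0429, adjusted 0.125). Control and Chd7iKO values overlapped for 10 of 10 members, whereas 12.5% of all genes did not overlap (6.2% with Chd7iKO above every control and 6.32% below). Log2 fold changes ran from -0.25 (Chd5) to 0.15 (Chd1), with a median of 0.011 for the members and 0.0014 for all genes. The median absolute log2 fold change was 0.079 for members and 0.15 for all genes, and 31.6% of all genes differed by more than the member with the largest difference. These are counts and medians only, with all genes not matched to the members in level, and no test sets the family against other genes.

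**Figure D1:**
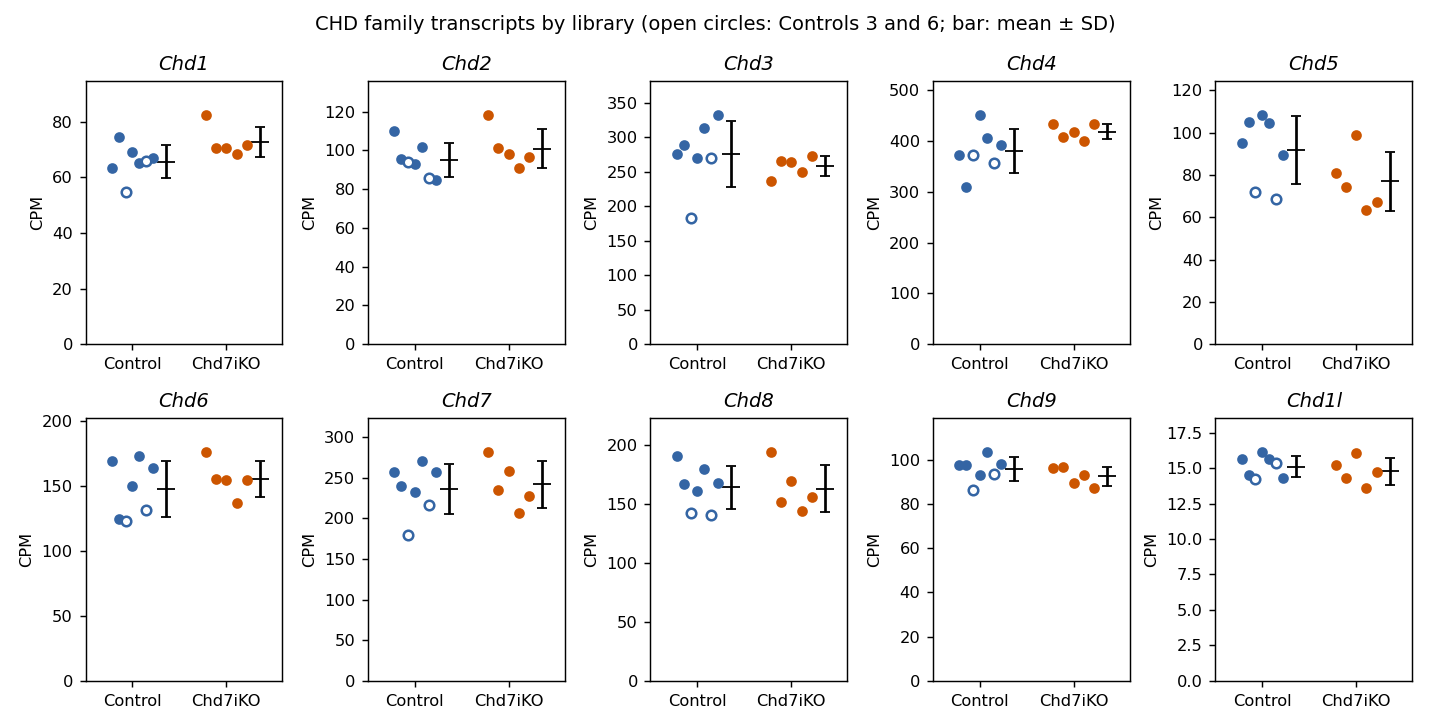
Level of each CHD family gene in every library, in CPM on linear axes from 0; blue is Control (n = 7), orange Chd7iKO (n = 5), open circles are Controls 3 and 6, and the bars are means with SD. The groups overlap in every panel, and Control 3 is the lowest point among controls for 6 of the 10 genes.

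Chd7 is the targeted gene and was read first. Its CPM ran from 179 in Control 3 to 270 in Control 5, with a median of 240 over the 7 controls. The Chd7iKO libraries 1 to 5 had 281, 235, 258, 207 and 227 CPM. The highest library of all was thus Chd7iKO 1 and the lowest Control 3, and 3 of the 5 Chd7iKO libraries lay below the control median. Chd7iKO differed by 0.033 in log2 units (SE 0.098, adjusted p = 0.837 in edgeR), and the 95% interval ran from a fall of 11.6% (-11.6%) to a rise of 18.5%. A two-sided exact permutation test of the mean log2 CPM gave p = 0.760. The values sum reads over all exons of a gene of 13.8 kb of exon on chromosome 4, from 8690406 to 8867659, so a transcript that lacks only the floxed part would still be counted. They are therefore no check of the deletion. Without Controls 3 and 6 the difference turned to -0.053 (SE 0.079, adjusted p = 0.660 in edgeR).

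Chd8, the other remodeller of the series' title, which binds beta-catenin and histone methyltransferase modules, behaved much the same across libraries. Controls ran from 140 (Control 6) to 191 CPM (Control 1), with a median of 167. The Chd7iKO libraries 1 to 5 had 194, 152, 170, 144 and 156 CPM. Again Chd7iKO 1 was the highest library of all, and the groups overlapped nearly over their whole range. The difference was -0.012 in log2 units (SE 0.088, adjusted p = 0.938 in edgeR), with a 95% interval from -13.0% to 13.1%. Since Chd7 and Chd8 are known to share many targets, the ratio between them within a library was also compared, which does not depend on scaling. Chd7 had 1.44 ± 0.104 reads for each read of Chd8 in Control (SD, n = 7) and 1.48 ± 0.0486 in Chd7iKO libraries (n = 5). In log2 units the ratio was 0.049 higher in Chd7iKO, and a two-sided exact permutation test gave p = 0.388.

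Chd6 and Chd9, the other members of this subfamily, are less studied remodellers. Chd6 ran from 123 to 173 CPM in Control, with a median of 150, and the Chd7iKO libraries 1 to 5 had 176, 156, 155, 137 and 155 CPM. Its log2 fold change was 0.072 (SE 0.096). Chd9 had one of the smallest spreads of the family, at 95.7 ± 5.34 CPM in Control and 92.4 ± 4.24 CPM in Chd7iKO libraries (log2 fold change -0.051, SE 0.049). Its 95% interval of -10.2% to 3.77% was the narrowest among the 10 members. Neither gene passed the threshold (edgeR adjusted p = 0.63 for Chd6 and 0.473 for Chd9). No rise of Chd6, Chd8 or Chd9 in Chd7iKO cells above 21.3%, 13.1% and 3.77% lay within these intervals. They are bounds of the fit of all libraries only. Over the alternative fits the log2 fold change ran from -0.0019 to 0.14 for Chd6, from -0.11 to 0.064 for Chd8 and from -0.081 to -0.020 for Chd9.

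Among the NuRD ATPases, Chd5 had the largest difference of the family. Chd5, known mainly from neurons, ran from 68.8 (Control 6) to 108 CPM (Control 4), with a median of 94.9. The Chd7iKO libraries 1 to 5 had 81.0, 74.3, 98.9, 63.2 and 67.3 CPM. Controls 3 and 6, at 72.1 and 68.8 CPM, lay within the Chd7iKO range, the other 5 controls had 89.3 to 108 CPM, and Chd7iKO 3 alone of its group reached that range. Chd7iKO differed by -0.25 in log2 units (SE 0.13, adjusted p = 0.173 in edgeR), with a 95% interval from -31.3% to 2.36%. Without Controls 3 and 6 it was -0.38 (SE 0.11, edgeR adjusted p = 0.0222), past the threshold. Controls 3 and 6 had the lowest Chd5 of their group, so leaving them out deepens the fall by itself. Without Control 3 alone it was -0.30 and without Control 6 alone -0.31 (edgeR adjusted p = 0.106 and 0.0752). With limma voom and quality weights on all libraries it was -0.35 (limma adjusted p = 0.0191).

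Among the Chd7iKO libraries, Chd5 was lowest where markers of blood vessels and microglia were highest, while the controls showed no such order for blood vessels. Summed endothelial and mural markers (10 of 10 measured) were 773 and 886 CPM in Chd7iKO 4 and 5, which had the lowest Chd5, and 384 and 430 CPM in Chd7iKO 1 and 3, which had the highest. Among controls, Control 3 had the lowest sum (192 CPM) with low Chd5, Control 6 had 447 CPM with the lowest Chd5, and Control 1 had the highest sum (450 CPM) with the median Chd5. Of these 10 marker genes 9 rose (median log2 difference 0.84), where 15.8% of all genes did. Summed microglial markers (8 of 8 measured) were 447 and 474 CPM in Chd7iKO 4 and 5 and 352 and 372 CPM in Chd7iKO 1 and 3. They ran from 176 to 417 CPM in Control, highest in Control 6, and 5 of the 8 rose (median log2 difference 0.58). Neuronal markers (8 of 8 measured) summed to 155 to 188 CPM in Control and 139 to 239 CPM in Chd7iKO libraries, highest in Chd7iKO 4. Of these 8 genes 0 rose and 2 fell, where 13.8% of all genes fell. Astrocyte markers (7 of 7 measured) had larger sums, at 2797 to 6234 CPM in Control and 2888 to 4633 CPM in Chd7iKO libraries. Of these 7 genes 0 rose and 0 fell. Without Chd7iKO 4 and 5 the log2 fold change of Chd5 was -0.11 (edgeR adjusted p = 0.663), where 12.4% of all genes were called. Leaving out the libraries with the lowest Chd5 of their group lessens the fall by itself. With other cell types' markers as a covariate it was -0.022 (edgeR adjusted p = 0.946), where 5.3% of all genes rose and 4.74% fell. These fits cannot give the part of other cell types in the Chd5 values, which was not tested.

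Chd3, the Mi-2 alpha ATPase, ran from 183 CPM in Control 3 to 332 CPM in Control 7, with a median of 275, and the Chd7iKO libraries 1 to 5 had 237, 266, 264, 250 and 273 CPM. The Chd7iKO values were bunched and lay within the control range. The difference was -0.097 in log2 units (SE 0.11, adjusted p = 0.559 in edgeR). Control 3 was far below the other 6 controls. Without Controls 3 and 6 Chd3 was lower in Chd7iKO cells by -0.19 (SE 0.066, edgeR adjusted p = 0.0436), from 295 ± 26.6 CPM (SD, n = 5), and the groups still overlapped. Leaving out the lowest control deepens the fall by itself. Without Control 3 alone it was -0.17 and without Control 6 alone -0.097 (edgeR adjusted p = 0.0640 and 0.581). Chd3os, a transcript named for the opposite strand of Chd3, had 7.28 to 10.7 CPM over all libraries. In GENCODE M21 it was not among the genes that overlap Chd3, where the only gene was a scaRNA on the Chd3 strand. The labels do not say whether counting used strand.

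Chd4, the Mi-2 beta ATPase and usual NuRD motor in dividing cells, went the other way. Controls ran from 310 (Control 2) to 451 CPM (Control 4), with a median of 373. The Chd7iKO libraries 1 to 5 had 434, 408, 418, 401 and 434 CPM, all of them above the control median and below Control 4. On the log2 scale the difference was 0.14 (SE 0.074, adjusted p = 0.176 in edgeR), with a 95% interval from -1.34% to 23.0%. Reads of Chd3 for each read of Chd4 were 0.733 ± 0.148 in Control and 0.616 ± 0.0410 in Chd7iKO libraries, and those of Chd5 for each read of Chd4 were 0.243 ± 0.0495 and 0.184 ± 0.0329. Both ratios overlapped between the groups, with 0.490 to 0.932 in Control against 0.545 to 0.651 in Chd7iKO for Chd3, and 0.193 to 0.339 against 0.155 to 0.237 for Chd5.

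Chd1, which travels with elongating RNA polymerase, had 65.7 ± 5.99 CPM in Control and 72.8 ± 5.48 CPM in Chd7iKO libraries. Controls ran from 54.7 (Control 3) to 74.4 CPM (Control 2), with a median of 65.9, and the Chd7iKO libraries 1 to 5 had 82.3, 70.5, 70.7, 68.5 and 71.8 CPM. All 5 lay above the control median, and 2 controls, Control 2 and Control 4, reached their range. The log2 fold change was 0.15 (SE 0.070, unadjusted p = 0.0523 and adjusted p = 0.127 in edgeR), the smallest p of the family. Its relative Chd2 had 95.04 ± 8.83 CPM in Control and 101 ± 10.3 CPM in Chd7iKO libraries, a log2 difference of 0.087 (SE 0.075, adjusted p = 0.419 in edgeR). Chd2 was the 1 member whose estimated counts were not whole, in 12 of 12 libraries. On its own strand Chd2 overlaps a processed transcript (1810026B05Rik) and entries of the annotation type TEC. Chd9, whose counts were whole, overlaps only TEC entries on its strand. Chd3, Chd4 and Chd8, also with whole counts, overlap only small RNA genes (scaRNA, miRNA or snoRNA) on theirs. Whether any of these overlaps falls in exons was not tested. Why the Chd2 counts were not whole was not tested.

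Chd1l, a remodeller activated by poly(ADP-ribose), was the weakest member, with 439 to 562 estimated counts per library. It had 15.1 ± 0.753 CPM in Control and 14.8 ± 0.943 CPM in Chd7iKO libraries, a log2 difference of -0.032 (SE 0.065, adjusted p = 0.757 in edgeR). Counting error alone gives a coefficient of variation of 4.77% at 439 counts, close to the 4.98% seen between controls. For Chd4, with at least 9983 counts, counting error was 1.00% and the spread between controls 11.5%.

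**Figure D2:**
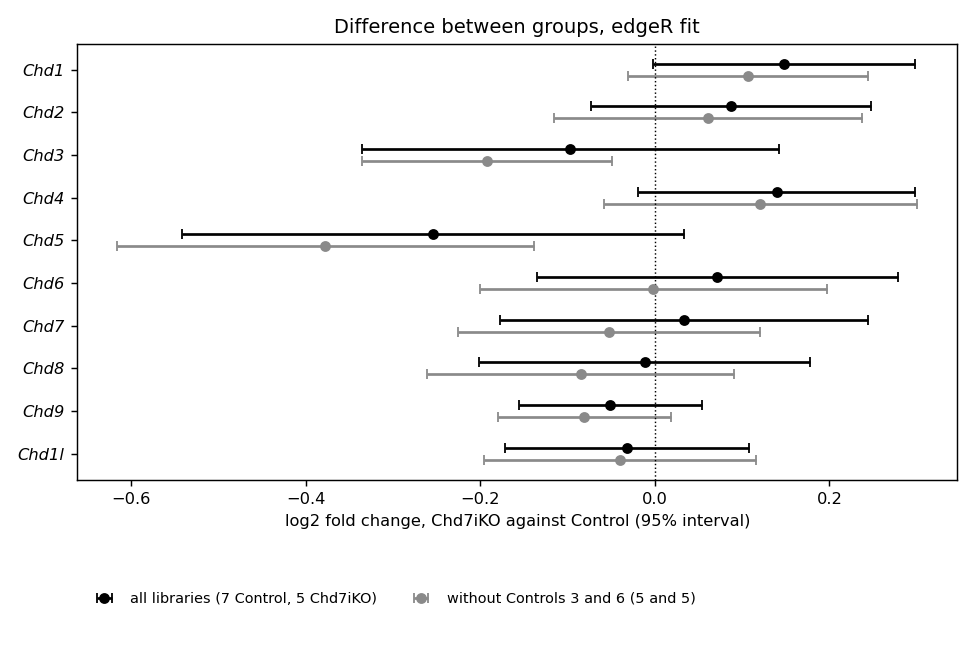
Log2 fold change of each member between Chd7iKO and Control cells (x axis), with 95% intervals from the edgeR fit; black is the fit of all libraries, grey the fit without Controls 3 and 6. All 10 black intervals include 0, and the grey intervals of Chd3 and Chd5 do not.

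Without Controls 3 and 6, then, 0 members were higher and 2 were lower, Chd3 and Chd5, where 30.5% of all genes were called (16.4% higher and 14.1% lower). Since Control 3 was low in both genes and Control 6 in Chd5, leaving them out deepens these falls by itself. Without Chd7iKO 4 and 5 there were 0 members called against 12.4% of all genes. Leaving out any 1 library gave 0 members against 19.1% to 32.7% of all genes.

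Levels were compared between genes only per length. On the scale of CPM per kb of exon, the order in Control was Chd4 (47.4 ± 5.47), Chd3 (32.7 ± 5.61), Chd7 (17.1 ± 2.24), Chd8 (9.95 ± 1.11), Chd5 (9.57 ± 1.66), Chd6 (7.77 ± 1.13), Chd1 (7.53 ± 0.687), Chd2 (6.65 ± 0.617), Chd9 (4.13 ± 0.231) and Chd1l (3.51 ± 0.175). The first 3 steps, from Chd4 down to Chd8, and the last 2, from Chd2 down to Chd1l, held in 12 of 12 libraries. Between them the order was loose: Chd8 was above Chd5 in 9 of 12 libraries, Chd5 above Chd6 in 8, Chd6 above Chd1 in 5 and Chd1 above Chd2 in 10. On this scale Chd4 made up 32.5% ± 3.39 of the family in Control and 35.0% ± 1.02 in Chd7iKO libraries, and Chd7 11.7% ± 0.759 and 11.7% ± 0.883. Exon lengths were unions over all GENCODE M21 transcripts, which may not be the annotation used for counting. With coding lengths instead, places 1 to 4 and 9 and 10 had the same genes, and places 5 to 8 went to Chd6, Chd2, Chd5 and Chd1.

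**Figure D3:**
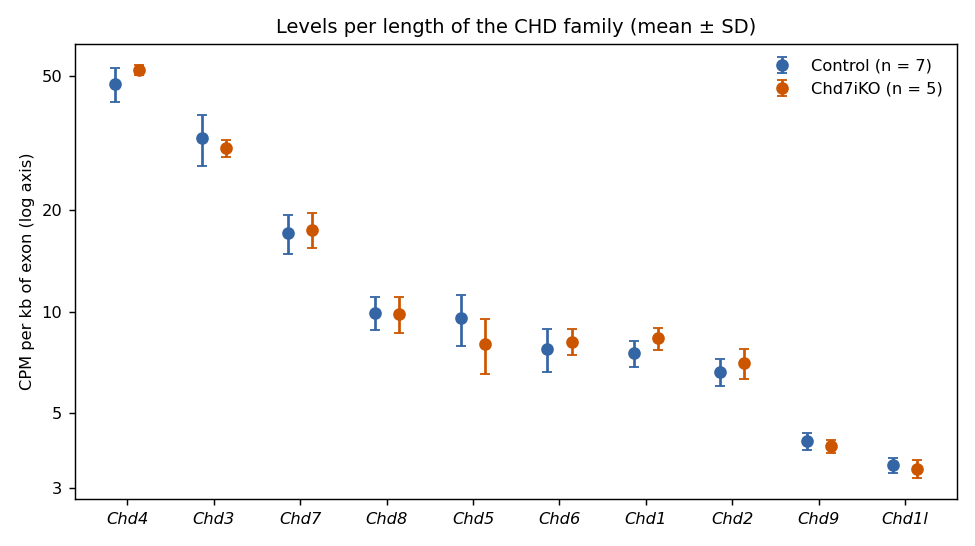
Level of each member in CPM per kb of exon (log axis), as mean with SD for Control (blue, n = 7) and Chd7iKO (orange, n = 5), ordered by the Control mean. Chd4 and Chd3 lead in both groups, and Chd8 to Chd2 lie close together between 6.65 and 9.95 in Control.

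The family's reads summed to 1568 ± 146 CPM in Control (1322 to 1734) and 1595 ± 91.1 CPM in Chd7iKO libraries (1467 to 1715). Single libraries shifted many members at once. Control 3 was below the gene mean in 10 of 10 members, by -0.23 on the log2 scale on average, and was the lowest of the 7 controls for 6 of them. Control 6 and Chd7iKO 4 were each below it in 8 of 10 members, and Chd7iKO 1 was the highest of all 12 libraries for 5 members. After each group's mean was taken out, 42 of the 45 pairs of members had a positive correlation over the 12 libraries, with a median r of 0.51. The highest was that of Chd7 and Chd8 (r = 0.89), and Chd7 and Chd6 followed (0.82). Chd3 and Chd4 had 0.073. The points share library, depth and cell makeup, so that these values are a description. No median for pairs of other genes was set beside them. Genes outside the family followed more closely on the same scale, such as Ankrd11 for Chd7 (r = 0.96) and Zswim8 for Chd8 (0.97).

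**Figure D4:**
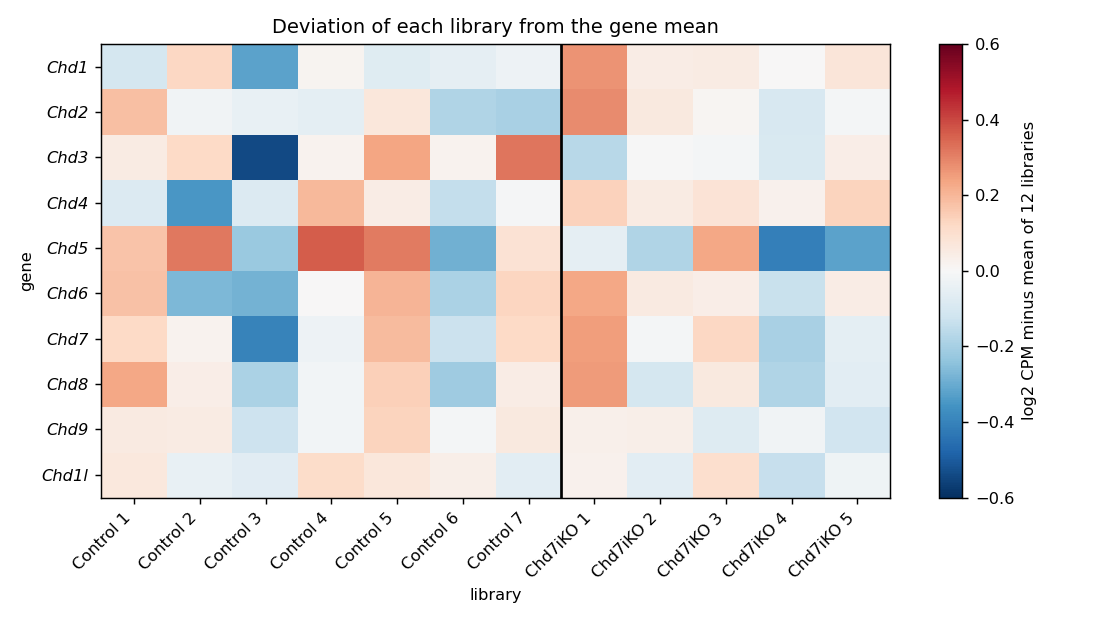
Log2 CPM of each member in each library minus the mean of that gene over the 12 libraries; red is above and blue below the mean, and the black line parts Control from Chd7iKO libraries. The column of Control 3 is blue in all 10 rows, and that of Chd7iKO 1 is red for most of them.

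Among 10251 other genes with at least 10 CPM on average, those whose levels followed Chd7 most closely over the 12 libraries were Ankrd11, a chromatin regulator (r = 0.96), Ccdc88c (0.94) and Mga (0.93), a partner of the Myc network. With the libraries farthest from the Chd7 median, Control 3 and Chd7iKO 1, left out, r was 0.92, 0.85 and 0.85. For Chd8 they were Zswim8 (0.97), Tnrc6c (0.96), a factor of miRNA silencing, and Bzrap1 (0.95), with 0.95, 0.93 and 0.93 without Control 6 and Chd7iKO 1. None of these 6 genes passed the threshold between the groups (edgeR adjusted p = 0.815 to 0.954). That follows largely from how they were picked, since Chd7 and Chd8 did not pass it either. They are the highest of many correlations and carry no test.

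Genes that work with the CHD remodellers were read from lists of known partners. Of 66 measured partners and other ATPases of the SNF2 family, 13 rose and 3 fell in edgeR (15.8% and 13.8% of all genes did). Of 12 NuRD subunits, 2 rose and 1 fell. The histone chaperone Rbbp7 rose from 137 ± 11.1 to 164 ± 9.30 CPM (log2 fold change 0.25, edgeR adjusted p = 0.00737), Gatad2a rose (0.11), and Cdk2ap1 fell (-0.20). Gatad2a kept its call only without Control 2 or Control 3 among the 12 fits that each leave out 1 library, and Cdk2ap1 only without Control 1, 5 or 6 or Chd7iKO 3 (highest adjusted p = 0.110 and 0.0773). In ChAHP, the complex of Chd4 with Adnp and HP1 proteins, Adnp rose from 40.8 ± 4.28 to 50.8 ± 5.19 CPM (0.32, edgeR adjusted p = 0.0127) and 3 Cbx genes did not pass.

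For the next lists too, the share of all genes in the same fit was 15.8% higher and 13.8% lower. Of 8 genes of the WDR5 module and other Chd8 partners, 1 rose, the beta-catenin gene Ctnnb1, from 899 ± 36.9 to 1016 ± 50.6 CPM (0.18). Its call was lost without Chd7iKO 5 (edgeR adjusted p = 0.0535). Of 11 subunits of PBAF, a remodeller that Chd7 is known to bind, 0 rose and 1 fell, Smarcd1, from 197 ± 19.6 to 165 ± 13.7 CPM (-0.26, lost without Chd7iKO 2 at adjusted p = 0.0509). Both subunits of FACT, the histone chaperone linked to Chd1, rose, Supt16 by 0.25 and Ssrp1 by 0.22 on the log2 scale, and 6 Paf1 complex genes did not pass. The FACT calls were lost without Chd7iKO 3 or Chd7iKO 5 (highest edgeR adjusted p = 0.0589 for Supt16 and 0.0649 for Ssrp1). Of 4 genes of the poly(ADP-ribose) response that recruits Chd1l, 1 rose, the repair scaffold Xrcc1, from 36.9 ± 2.84 to 45.5 ± 2.91 CPM (0.30).

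Of 20 other SNF2 family ATPases, 6 rose and 1 fell in the fit of all libraries, where 15.8% of all genes rose and 13.8% fell. The named rises were the termination factor Ttf2 (0.46), Hells, which acts on DNA methylation during replication (0.91, from 15.1 ± 4.95 to 28.3 ± 3.60 CPM), and the recombination factors Rad54b (0.79) and Rad54l (0.86). Smarca2, the BRM ATPase, was the 1 that fell (-0.29), and is named after its value was seen. Without Chd7iKO 4 and 5, 5 partners and ATPases rose and 0 fell, where 6.44% of all genes rose and 5.95% fell. Ttf2, Hells, Adnp and Xrcc1 were among the 5. Rad54b, Rad54l and Smarca2 were not called there (edgeR adjusted p = 0.0590, 0.0749 and 0.131). With other cell types' markers as a covariate 2 rose, Ttf2 and Gatad2a, and 0 fell, where 5.3% and 4.74% of all genes did. Chd7iKO 4 and 5 had the highest vascular marker sums, given above.

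**Figure D5:**
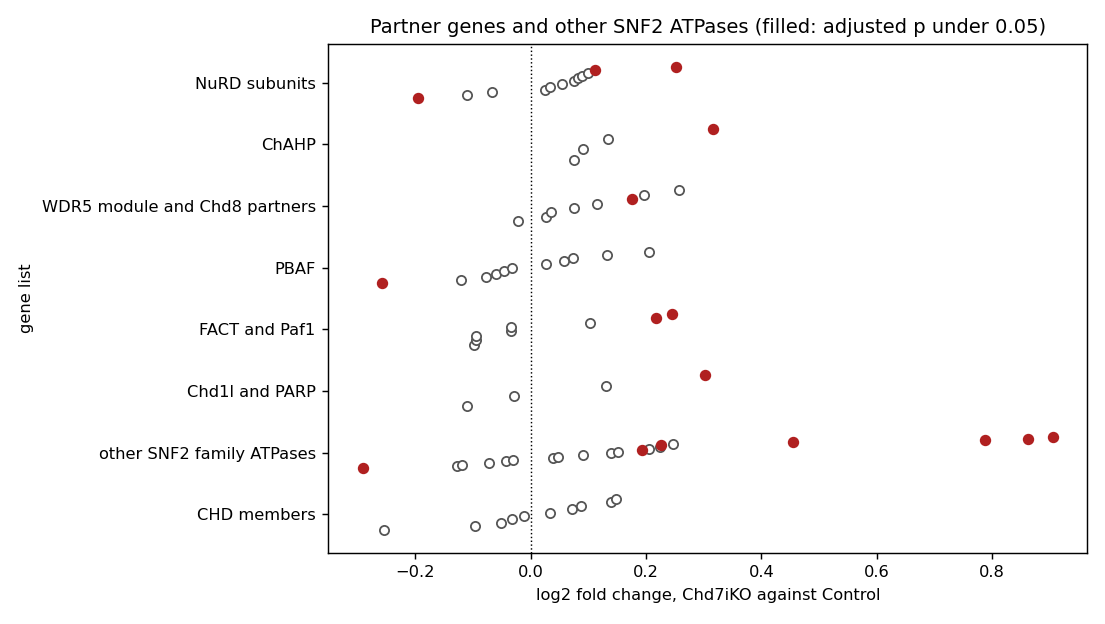
Log2 fold change between Chd7iKO and Control cells (x axis) for each gene of the partner lists, the other SNF2 family ATPases and the CHD members; red filled points have an edgeR adjusted p under 0.05. The ATPases Hells, Rad54l and Rad54b lie farthest to the right, and all 10 CHD members are open points between -0.25 and 0.15.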

How the data were processed

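The authors deposited estimated counts per gene for 14107 genes in 12 libraries, of which 1.76% of values were not whole. Per the submitters' processing notes, the tools were edgeR, featureCounts, Bowtie and TopHat2 and the build mm10, with no roles or versions. No annotation is named in them. The authors also deposited a table of their test (log2 fold change, p-value) and gene lists. Groups were taken from sample titles.

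Estimated counts were rounded and tested with edgeR 4.0.16 (quasi-likelihood F-test, TMM scaling, filterByExpr, two-sided, Benjamini-Hochberg over all genes, threshold 0.05, no covariate) in R 4.3.3, with DESeq2 1.42.0 and limma 3.58.1 as alternatives. The biological coefficient of variation was 14.7%. Log2 CPM used a prior count of 2. Single values were compared by exact permutation. No library pair of a group agreed within sampling noise (31 pairs, lowest chi-square per degree of freedom 9.14). The labels do not say whether each library came from separate animals. Controls that differ in Xist and Y-linked reads cannot be repeats of 1 sample, but for the others p-values may measure in part technical spread. The edgeR test of Chd7iKO against Control was tested on simulated data (14106 genes, 50 planted at each fold). It recovered 34% at 1.25-fold and 64% at 1.5-fold, then 94% at 2-fold, and 100% at 4-fold. Far fewer genes differed there than in these data, where 29.5% were called, so the adjustment was stricter in the simulation. Planted genes were drawn at any level and spread, so these shares are not those of the members.

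The members, partner lists and alternatives were chosen with earlier results of these data known. Named genes are the 10 members, up to 4 called genes of each list by smallest adjusted p, and the 3 genes most correlated with Chd7 and with Chd8. Hpf1 and Supt16h, listed as partners, had no entry under these symbols, while the FACT subunit was measured under the symbol Supt16. Gene models, coding sequence and lengths came from GENCODE M21, promoters from RefSeq.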

Additional observations from a re-analysis of the deposited data

Results flagged for a closer look

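Among 34 sets of values examined (each member, each of 6 ratios and the family's sum, in each group), 3 held a library far from the others. Chance alone gives about 1 such set in 20. The sets share libraries and genes and are not independent, so the count shows no excess over that rate. Chd1 stood at 82.3 CPM in Chd7iKO 1, above 68.5 to 71.8 CPM in the other 4 libraries of its group. Chd3 stood at 183 CPM in Control 3, below 270 to 332 CPM in the other 6 controls. The ratio of Chd3 to Chd4 reads was 0.545 in Chd7iKO 1, below 0.622 to 0.651 in the rest of its group.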

How the results depend on the processing

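Of 230 member values under the alternatives, 208 kept their direction and their side of the threshold, 3 passed it and 19 changed direction, none of them past it. The count of called members was 0 in all fits except limma voom (1) and the fit without Controls 3 and 6 (2); the cause was not tested. The count of all genes was 6462 with limma voom, 1747 without Chd7iKO 4 and 5, 1415 with other cell types as a covariate and 2056 at an adjusted p under 0.01, and leaving out 1 library gave 2690 (without Chd7iKO 5) to 4612. The Chd7 difference in the permutation test turned to -0.059 without Controls 3 and 6 (exact p = 0.524), and to -0.024 without Control 3 and -0.022 without Chd7iKO 1, with a range of -0.024 to 0.096 over the fits that leave out 1 library; it was 0.14 without Chd7iKO 4 and 5. The Chd7 to Chd8 ratio kept its direction, at 0.017 to 0.066 with 1 library left out and 0.071 without Chd7iKO 4 and 5. Log2 fold changes near 0 changed sign. Chd8 was 0.0034 with upper-quartile scaling, 0.020 with library totals, 0.064 without Chd7iKO 4 and 5, 0.022 with a covariate of Y-linked genes and 0.047 with other cell types, and -0.084 to 0.035 with 1 library left out. Chd7 was -0.062 with limma voom and -0.053 without Controls 3 and 6, and -0.029 to 0.090 with 1 left out. Chd6 was -0.0015 and -0.0019 in those fits. Chd1l was 0.0092 without Chd7iKO 4 and 5 and 0.0024 with other cell types, and -0.064 to 0.0025 with 1 left out. Partner genes numbered 22 higher and 6 lower with limma voom, and 8 higher and 2 lower without Chd7iKO 5. Same-numbered libraries deviated together at -0.13 to 0.34, with 0.34 for number 1, and 2 of 10 matched their own number best. These few values cannot decide whether replicate numbers mark pairs, such as litters, and the main fit used no pairing. With the replicate block over 5 and 5 libraries, 4819 genes and 0 members were called, against 4167 genes and 0 members in the main fit. At the smallest planted fold most genes went undetected, so small differences in a member could be missed. Levels per kb depend on the length used, a choice added after the data were seen.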
